A study of Mus musculus with 30 samples.

Results

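The untreated adult cells of the series were 6 of its 30 RNA sequencing libraries, chosen by their labels: 3 of Protocol 2 Control and 3 of Protocol 3 Control. Both came from brains of C57/B6 mice (genotype as labelled) aged 6 to 8 weeks, perfused with heparinized saline, and neither received HMGB1, the nuclear protein used as a stimulus for the other libraries of each protocol. In Protocol 2, dissociated cells of 3 pooled brains were let adhere to a flask and kept for 7 days. The medium held 100 ng/ml of GM-CSF and as much M-CSF, growth factors that keep macrophages alive in a dish. Loosely attached cells were discarded with a weak trypsin solution, and the microglia were then lifted with a stronger one and replated overnight in serum-free X-VIVO medium. The study describes this medium as free of exogenous growth factors. In Protocol 3, cells carrying the surface protein CD11b were pulled out with antibody-coated magnetic beads, kept for 0 days in culture without either factor, and put into X-VIVO medium. How many brains went into a Protocol 3 sample, and how long its untreated cells stood in that medium, is not given in the sources used here. Isolation by adherence or by beads, the week of culture, the growth factors and the replating differ together between the groups and cannot be told apart. The labels call the 3 libraries of a group biological replicates, and the study describes its adult isolations as derived from distinct mice. The p values of single genes rest on a spread estimated over all 15 Control libraries, those of the neonatal protocols included. They do not measure the spread between adult isolations alone.

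Microglia are the resident macrophages of the brain. Their identity in the tissue depends on signals from their neighbours, above all TGF-beta and the ligands of the M-CSF receptor, which maintain transcription factors such as SALL1 and SMAD3 and a set of surface proteins that other macrophages largely lack. Outside the brain these signals are lost, and isolation itself is a stimulus: mechanical or enzymatic dissociation can induce within minutes the immediate early genes, short-lived transcripts for transcription factors and inhibitors of signalling. GM-CSF and M-CSF are in turn instructive for macrophages, acting through STAT5 and through the M-CSF receptor kinase. The comparison therefore asks how the transcriptome of adult microglia after a week in a flask differs from that of the same kind of cell isolated without that week.

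The total of counts per library ranged from 24155301 to 24549108 in Protocol 2 and from 21782428 to 24892245 in Protocol 3. Levels below are CPM, counts scaled to a common library size after TMM scaling, with libraries in the order of their replicate numbers 1, 2 and 3, and length-scaled levels are TPM, which divide by gene length as well. The libraries of a group were alike: among 11807 genes with enough counts in both groups, the median SD of log2 CPM over 3 libraries was 0.111 in Protocol 2 and 0.138 in Protocol 3. A range of over 1 on the log2 scale was found for 367 of these genes (3.11%) in Protocol 2 and for 495 (4.19%) in Protocol 3. The 100 most abundant genes took 33.2 ± 0.239% of the counts in Protocol 2 and 25.5 ± 0.367% in Protocol 3, and mitochondrial genes 0.948 ± 0.0999% and 0.635 ± 0.0199% (SD, n = 3 each; two-sided exact permutation p = 0.1 for both, the smallest that 3 against 3 libraries allow). Protocol 2 replicate 2 stood apart in rRNA-type genes, which held 0.0233% of its counts, against 1.07% and 0.821% in the other Protocol 2 libraries and 1.26% to 1.49% in Protocol 3. A gene shared by leukocytes was at a similar level in every library, and genes more particular to microglia are given below. Ptprc, which encodes the leukocyte antigen CD45, was at 370.2, 429 and 454 CPM in Protocol 2, against 401, 429.8 and 456 CPM in Protocol 3. The groups overlapped, and the log2 fold change was -0.04 with a standard error of 0.0918 and an adjusted p of 0.705.

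Most genes differed between the groups. Of 17033 genes tested with edgeR's quasi-likelihood F test in a fit of the 15 Control libraries of the series, 6827 (40.1%) were higher and 6335 (37.2%) lower in Protocol 2 at a Benjamini-Hochberg adjusted p below 0.05. With so many differences, a second rule adds size: 2552 genes (15% of those tested) were at least 4-fold higher and 2458 (14.4%) at least 4-fold lower. For 13706 genes (80.5%) the libraries of the groups did not overlap. The median log2 fold change of all genes tested was 0.08, and a list of genes is described below by its counts and its median beside these values.

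**Figure D1:**
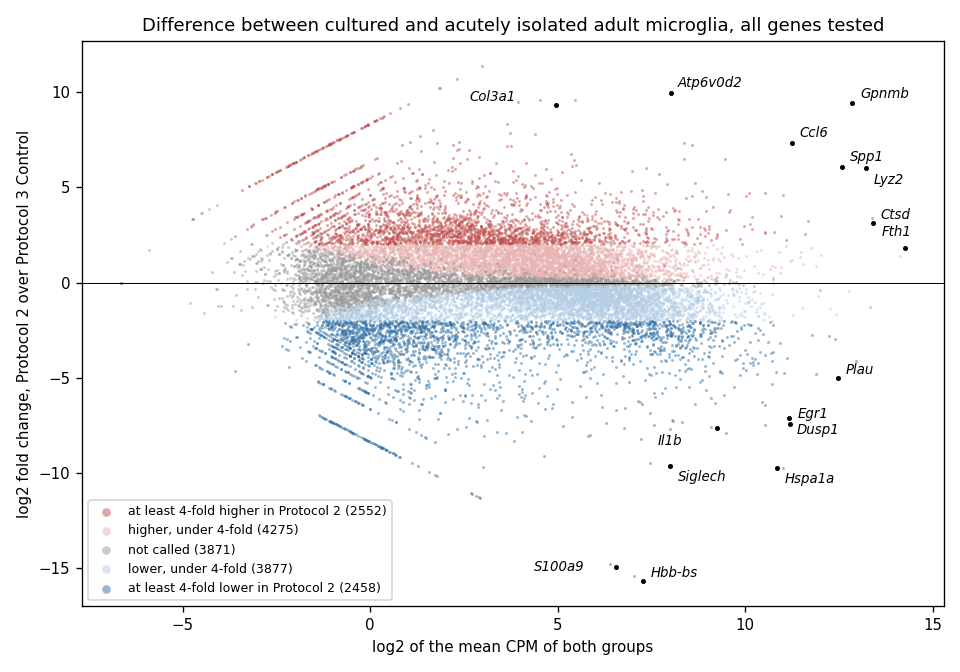
Log2 fold change of Protocol 2 over Protocol 3 Control (vertical axis) against the log2 of the mean CPM of both groups (horizontal axis) for the 17033 genes tested. Each point is a gene, colours mark the 5 classes of call with their counts, and named genes are black: 2552 genes lie at least 4-fold above and 2458 at least 4-fold below 0, and the straight rows of points at low levels are genes with 0 counts in a group.

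The 12 largest rises held genes of several functions. Atp6v0d2, a subunit of the proton pump of lysosomes known from osteoclasts and macrophages, was at 499.6, 539 and 505 CPM in Protocol 2, against 1.06, 0.333 and 0.196 CPM in Protocol 3, which is 9.97 on the log2 scale (standard error 0.293, adjusted p = 3.85e-13). Gpnmb, a transmembrane glycoprotein of lysosomes and melanosomes, was at 14351, 14824 and 15339 CPM in Protocol 2, against 21.4, 23.9 and 19.8 CPM in Protocol 3 (9.42 on the log2 scale). Every Protocol 2 library was far above every Protocol 3 library for both. Among the 12 largest rises were also the chemokine gene Ccl6 (7.35), Anpep, which encodes aminopeptidase N (7.35), Siglec1, a receptor for sialic acids on macrophages (7.25), the fatty acid carrier Fabp5 (6.48), Cd200r4, a receptor of the CD200R family (6.16), and the secreted proteins Wfdc17 (6.52) and Ccl8 (6.42). The remaining 3 were Mmp3, a matrix metalloproteinase (9.59), the collagen gene Col3a1 (9.33) and Igfbp5, which binds insulin-like growth factors (6.75). These 3 are transcribed in fibroblasts as well, whose summed markers were at 572, 518 and 488 CPM in Protocol 2, against 32.1, 27.2 and 37.8 CPM in Protocol 3, and the part of such cells in the 3 values was not tested. Where Protocol 3 was near 0 the size of the change moved with single libraries: without its replicate 1 the log2 fold change was 10.92 for Atp6v0d2, 11.44 for Mmp3 and 7.42 for Igfbp5, and without its replicate 3 it was 8.96 for Mmp3 and 9.94 for Col3a1. Fewer cells of a type and less RNA per cell cannot be told apart in bulk samples.

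The largest falls held 4 transcripts of blood cells with 0 counts in all 3 Protocol 2 libraries, the haemoglobin genes Hbb-bs and Hba-a1 and the neutrophil genes S100a9 and Ngp. Next came heat shock genes, Hspa1a and Hspa1b, whose near-identical sequences can share reads. Siglech, a lectin that marks resident microglia, was at 0.532, 0.916 and 0.467 CPM in Protocol 2, against 539, 515 and 485 CPM in Protocol 3 (-9.64, standard error 0.216, adjusted p = 3.25e-16). Slco2b1, an organic anion transporter that marks the same cells, was at 0.164, 0.583 and 0.594 CPM in Protocol 2, against 99.3, 99.8 and 146.7 CPM in Protocol 3 (-8.000). The other falls of this size were the phosphatase gene Dusp2 (-8.22), the nuclear receptor gene Nr4a1 (-7.89), Fam83g (-7.67) and Adra2a, the alpha-2A adrenergic receptor (-9.45). Adra2a was at 0.532, 0.333 and 0.636 CPM in Protocol 2, against 153.1, 195.3 and 715 CPM in Protocol 3, where replicate 3 was far above the others, and without that replicate its log2 fold change was -8.42.

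**Figure D2:**
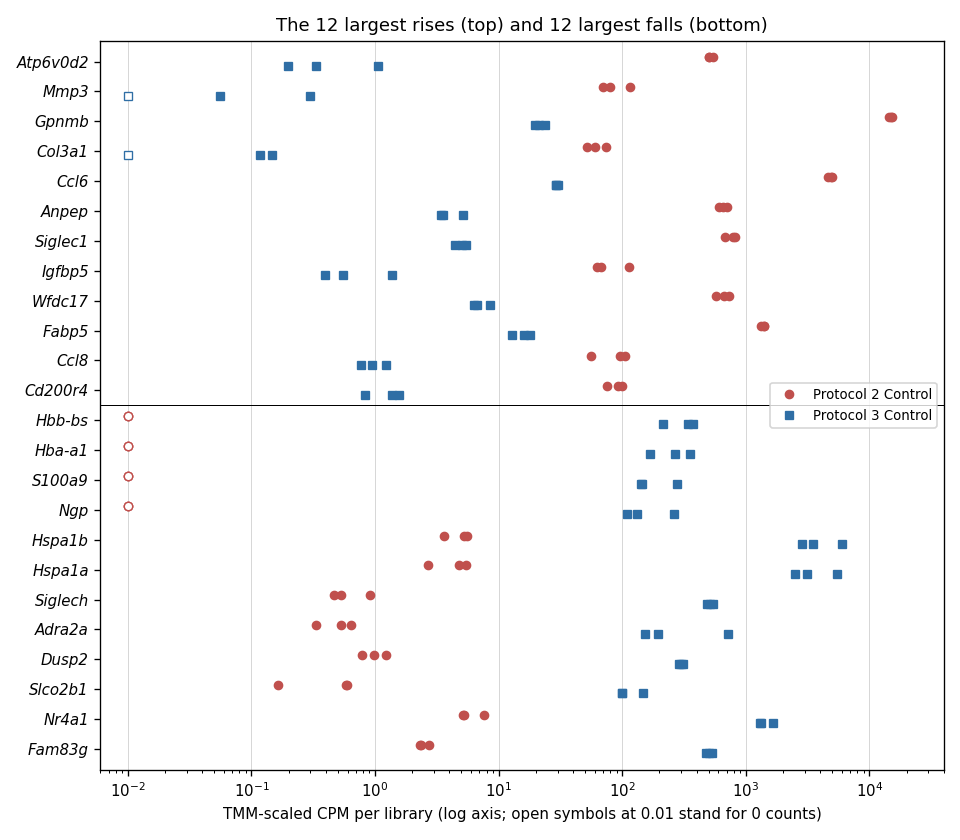
TMM-scaled CPM of each library (horizontal log axis) for the 12 largest rises (upper rows) and 12 largest falls (lower rows), with Protocol 2 Control as red circles and Protocol 3 Control as blue squares. Open symbols placed at 0.01 stand for 0 counts. The rows were taken only from genes whose groups do not overlap.

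Per length, the leading transcripts of the groups were partly shared. Fth1, the heavy chain of the iron store ferritin, reached 85804 TPM in Protocol 2 and 22212 TPM in Protocol 3, and Ftl1, the light chain, 10627 TPM and 13435 TPM. In Protocol 2 they stood beside Lyz2, which encodes lysozyme (34878 TPM, against 499 in Protocol 3), Spp1, which encodes the secreted protein osteopontin (17988 against 242), the protease gene Ctsd (20299.6 against 2107), Psap, the precursor of lysosomal lipid activators (17450.3 against 1492), and B2m, the light chain of MHC class I (12364 against 3642). In Protocol 3 the leading protein-coding transcripts after ferritin were the protease inhibitor gene Cst3 (2319 TPM in Protocol 2 and 14852 in Protocol 3), the chemokine gene Ccl3 (872 and 12305), Plau, the urokinase protease (355 and 10549), and Sqstm1, an adaptor of selective autophagy (634 and 9986). In CPM, Sqstm1 was at 916, 859.6 and 842 in Protocol 2, against 16471, 15359 and 12956 in Protocol 3, and Plau at 375, 323 and 341, against 12401, 11792 and 9168, so that the groups lay far apart for both. The rRNA gene CT010467.1 was among the 8 highest in Protocol 3 as well, at 9919, 215 and 7809 CPM in Protocol 2, against 14173, 13642 and 15536 CPM in Protocol 3, without a call. CT010467.1 was called without Protocol 2 replicate 2 (-0.68). The row with the highest TPM in both groups was Gm23935, a short gene annotated as a miRNA, at 5974, 25.9 and 4613 CPM in Protocol 2, against 3933, 4464 and 5512 CPM in Protocol 3. It was not called (adjusted p = 0.770), and its low value in Protocol 2 replicate 2 goes with the low rRNA-type share of that library. Gapdh, a gene with many processed copies in the genome, had only 175.9, 4.66 and 4.84 CPM in Protocol 2, against 35.4, 16.8 and 28.3 CPM in Protocol 3, so its row is uncertain. It was not called, and its log2 fold change was 1.21 with all libraries and -2.45 without Protocol 2 replicate 1.

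The identity of the cells was retained in part. Of 10 genes shared by microglia and other macrophages, 6 were higher and 3 lower in Protocol 2. Itgam, which encodes the CD11b chain used for bead isolation in Protocol 3, was at 474, 486 and 515 CPM in Protocol 2, against 103.0, 99.6 and 101.2 CPM in Protocol 3 (2.28, standard error 0.0849, adjusted p = 3.19e-15). Adgre1, the F4/80 antigen of macrophages, was at 2008 ± 111.4 CPM in Protocol 2 and 235 ± 19.3 CPM in Protocol 3 (3.09; SD, n = 3 each, as for every such pair below), and Aif1, which encodes the actin-binding protein IBA1, changed by 1.73. Against these, Cx3cr1, the receptor for the neuronal chemokine fractalkine, was at 9.66, 7.66 and 7.55 CPM in Protocol 2, against 134.6, 160.4 and 239 CPM in Protocol 3 (-4.42), and Csf1r, the M-CSF receptor, at 563, 636 and 688 CPM, against 2602, 2541 and 2640.5 CPM (-2.04). Spi1, which encodes the transcription factor PU.1, fell by 1.80 on the log2 scale.

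Surface and secreted genes of homeostatic microglia were mostly lower: of 23 tested, 15 were lower, 12 of them at least 4-fold, and 6 higher, with a median of -2.04. Tmem119, a transmembrane protein used to tell microglia from other macrophages, was at 5.40, 4.83 and 5.09 CPM in Protocol 2, against 49.7, 61.3 and 96.4 CPM in Protocol 3 (-3.76, standard error 0.220, adjusted p = 4.56e-11). P2ry12, the ATP and ADP receptor that steers microglial processes to injury, was at 28.2, 43.5 and 45.1 CPM in Protocol 2, against 206, 222 and 225 CPM in Protocol 3 (-2.48). The groups did not overlap for either gene, as for 80.5% of all genes, and both stayed detectable in the cultured cells. The lens crystallin gene Crybb1 (-7.03), the fructose transporter gene Slc2a5 (-6.33), the Fc receptor-like gene Fcrls (-4.23) and the adhesion receptor gene Adgrg1 (-4.05) fell as well. The list was not uniform. Csf3r, the G-CSF receptor, was at 154.6 ± 22.2 CPM in Protocol 2 and 175.5 ± 16.02 CPM in Protocol 3 and was not called. In contrast, Pros1, a ligand of phagocytic receptor kinases (2.21), Ctss, which encodes the protease cathepsin S (0.89), Selplg, a selectin ligand (0.90), and Trem2, a receptor for lipids (0.72), were higher in Protocol 2.

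Transcription factors of the lineage followed the same division, with 8 of 28 higher, 18 lower and a median of -1.14. Sall1, the factor most restricted to microglia within the brain, was at 37.2, 44.2 and 43.02 CPM in Protocol 2, against 56.1, 63.5 and 65.3 CPM in Protocol 3 (-0.57, standard error 0.143, adjusted p = 0.00132), a small fall beside that of the surface genes. The largest changes of the list were falls of Nfkb1, the p105 precursor of NF-kB (-4.80), Ets1 (-3.67), Runx1 (-3.38) and Sall3. Sall3, the relative of Sall1, was at 8.20 ± 0.899 CPM and 78.4 ± 16.1 CPM (-3.26), Mef2a at -2.48 and Irf8, which is needed for the lineage, at -0.95. Maf, a factor with a leucine zipper, went the other way, at 537, 607 and 649 CPM in Protocol 2, against 77.3, 73.7 and 102.4 CPM in Protocol 3 (2.82), as did Nr1h3, the oxysterol sensor LXR-alpha (2.50). Bhlhe41 (0.10) and Etv5 (0.04) were not called.

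Genes of the TGF-beta pathway changed in both directions. Of 26 genes, 9 were higher and 13 lower, with a median of -0.41. The type I receptor gene Tgfbr1 was at 142.1, 143.2 and 150.4 CPM in Protocol 2, against 1997, 2067 and 1886 CPM in Protocol 3 (-3.77), whereas Tgfbr2, the type II receptor, was at 359.9 ± 33.4 CPM and 293 ± 18.8 CPM (0.29). Smad7, an inhibitor that the pathway induces, was lower, at 10.6, 7.33 and 9.33 CPM in Protocol 2, against 294, 319 and 320.1 CPM in Protocol 3 (-5.10, standard error 0.162, adjusted p = 1.87e-14), and the inhibitor genes Skil and Pmepa1 were at -3.42 and -3.07. Smurf1, a ubiquitin ligase of the receptors (88.8 ± 7.49 CPM in Protocol 2 and 97.2 ± 9.34 CPM in Protocol 3), and Tgfbi, a matrix protein (56.5 ± 8.46 and 70.7 ± 3.60 CPM), were not called. Tgfbi was called without Protocol 2 replicate 1 (-0.40). The signal carriers Smad2 (-1.45), Smad3 (-2.46) and Smad4 (-0.91) were lower too, as was the ligand gene Tgfb1 (-0.96). The proteins that store latent ligand in the matrix were higher, Ltbp1 at 3.41, Ltbp2 at 5.05 and Ltbp3 at 2.40, and so was the accessory receptor gene Eng (1.79). Fibroblast and endothelial cells transcribe these genes as well, and the part of other cells in them was not tested.

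Receptors for both growth factors of the culture changed in opposite directions. The chains of the GM-CSF receptor were higher in Protocol 2: Csf2ra was at 373, 386 and 369 CPM in Protocol 2, against 202, 213 and 252 CPM in Protocol 3 (0.76, standard error 0.0947, adjusted p = 4.11e-07), and the beta chain genes Csf2rb and Csf2rb2 were at 1.08 and 0.49. The M-CSF receptor gene, given above, was lower, and so was that of its ligand Csf1, at 96.1, 112.2 and 104.7 CPM in Protocol 2, against 1505, 1583 and 1885 CPM in Protocol 3 (-3.99). Genes that STAT5 can induce after GM-CSF were among the lower ones. The cells had by then spent a night in X-VIVO medium, to which no added GM-CSF is described. The replating differs between the groups along with isolation and culture, and its part in these values was not tested. Cish, a STAT5-induced inhibitor of cytokine receptors, was at 1.47, 1.33 and 1.23 CPM in Protocol 2, against 42.7, 48.03 and 55.9 CPM in Protocol 3 (-5.18), and Pim1, Socs3 and Osm were at -4.86, -4.84 and -4.45. Of the 22 genes in this list, 16 were lower, 9 of them at least 4-fold, and 4 higher. The cyclin gene Ccnd1 was the remaining higher one (0.81), and Il34, the second ligand of the M-CSF receptor, was near 1 CPM in both groups (0.969 and 0.690) and not called.

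Antigen presentation separated by class. Of 20 genes of MHC class II presentation and costimulation, 16 were lower in Protocol 2, 12 of them at least 4-fold, and 4 higher, with a median of -3.02. Cd74, the invariant chain that guides class II molecules, was at 29.7, 36.6 and 41.9 CPM in Protocol 2, against 1592, 1576 and 1717 CPM in Protocol 3 (-5.50, standard error 0.387, adjusted p = 1.19e-07). H2-Eb1 was at -6.36, H2-Ob, which tunes peptide loading, at -5.35, H2-Aa at -5.26, H2-Ab1 at -4.26 and Ciita, the master activator of the class, at -3.84. Cd83, a stabilizer of surface class II, was at 140.1 ± 21.3 CPM in Protocol 2 and 2296 ± 148.0 CPM in Protocol 3, while the costimulatory ligand gene Cd86 changed by -0.94. The inhibitory ligand gene Cd274, PD-L1, was higher (1.53), as were Ifi30, a thiol reductase of antigen processing (3.06), Ctsh (1.55) and H2-DMb1 (1.41).

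Genes of dendritic cells, which make much class II, moved with it: Zbtb46, a factor of classical dendritic cells, was at 2.87, 3.04 and 2.93 CPM in Protocol 2, against 28.8, 26.6 and 30.3 CPM in Protocol 3, the homing receptor gene Ccr7 at 0.497 ± 0.480 CPM and 49.9 ± 5.37 CPM, and Xcr1 at 1.52 ± 0.324 CPM and 7.29 ± 2.000 CPM. Ccr7 changed by -6.62, and by -7.58 without Protocol 2 replicate 2. In the list of 25 dendritic cell and tissue macrophage genes, 15 were lower, all at least 4-fold, and 10 higher, 4 of them at least 4-fold. The lower ones included Irf4 (-6.54), Ccl22, a chemokine (-5.52), Cd163, the haemoglobin scavenger receptor of border macrophages (-6.05, and -7.03 without Protocol 2 replicate 1), and Chil3 (-5.28), and the higher ones the scavenger receptor genes Msr1 (4.43) and Marco (4.14), the lipid carrier Fabp4 (4.91) and Mrc1, the mannose receptor (1.84). The part of dendritic cells in the class II values was not tested.

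MHC class I was higher. Of 23 genes of this path, 17 were higher, 5 of them at least 4-fold, and 1 lower, with a median of 1.15. B2m was at 3885, 4593 and 4510.5 CPM in Protocol 2, against 1416, 1439 and 1332 CPM in Protocol 3 (1.63), and H2-K1, a classical heavy chain, at 3018, 3522 and 3652 CPM, against 1599, 1607 and 1286 CPM (1.18). The subunits that convert the proteasome to its immune form rose together, Psmb8 by 1.96, Psmb9 by 2.37 and Psmb10 by 2.40, with the peptide loading genes Tap1 (1.15) and Tapbp (2.45). The nonclassical heavy chain gene H2-T22 showed the largest change, at 731 ± 115.9 CPM in Protocol 2 and 30.9 ± 5.55 CPM in Protocol 3 (4.56). H2-T23, which encodes Qa-1, followed (2.62), and H2-Q4 was not called (372 ± 44.4 CPM in Protocol 2 and 405 ± 20.8 CPM in Protocol 3). H2 genes have near-identical copies whose reads can be split between them. The loading chaperone gene Canx was the lower member (-0.85), and Calr, its relative, was at 821 ± 49.4 CPM and 815 ± 13.8 CPM without a call.

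Immediate early genes were lower in the cultured cells. All 12 tested genes of the AP-1 and ATF factors, which bind DNA as dimers of FOS and JUN type, were lower, 10 of them at least 4-fold, against 14.4% of all genes. Fosb was at 2.83, 2.50 and 5.05 CPM in Protocol 2, against 524, 557 and 519 CPM in Protocol 3 (-7.27, standard error 0.259, adjusted p = 1.75e-11), and Fos at 30.9, 20.4 and 26.1 CPM, against 393, 453 and 499.6 CPM (-4.12). Jun was at -3.78, the small MAF gene Maff at -5.54, Junb at -4.72, Atf3 at -3.19 and Fosl1 at -7.35, while Batf, the factor that partners with JUN in immune cells, changed least (-0.55). Of 18 EGR, NR4A, IER and KLF genes, 17 were lower, 15 of them at least 4-fold. Egr1, a zinc finger factor induced by growth signals, was at 31.4, 22.9 and 27.9 CPM in Protocol 2, against 4021, 4370.2 and 5597 CPM in Protocol 3 (-7.41), Nr4a3 was at -6.84, Egr3 at -6.02, and Zfp36, whose protein destroys cytokine mRNAs, was at -4.58. Zfp36l1, of the same family, was the one not called (-0.11). Phosphatases that switch off MAP kinases followed: 16 of 19 genes of this list were lower, with Dusp1 at 32.7 ± 0.703 CPM in Protocol 2 and 4601 ± 609.6 CPM in Protocol 3, Dusp5 at -6.35 and Dusp8 at -5.30. Dusp10 (6.35 ± 1.15 and 5.93 ± 1.98 CPM) and Dusp14 (2.93 ± 0.302 and 3.42 ± 0.417 CPM) were not called. Gadd45a, a stress gene of the list, was the single higher member (0.89).

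Subunits and inhibitors of NF-kB, the factor that drives inflammatory transcription, were lower for 17 of 19, 14 of them at least 4-fold, with a median of -3.79. Nfkbia, the inhibitor that NF-kB induces against itself, was at 52.04, 42.6 and 47.3 CPM in Protocol 2, against 1303, 1356 and 1045 CPM in Protocol 3 (-4.71, standard error 0.125, adjusted p = 4.27e-17). Tnfaip3, the deubiquitinase A20, was at -4.50, Nfkbid at -5.80 and Nfkbiz, a nuclear cofactor, at -4.63. Of the kinases upstream Chuk changed by -0.68, Ikbkb was at 74.2 ± 2.11 CPM in Protocol 2 and 75.1 ± 3.86 CPM in Protocol 3 without a call, and the deubiquitinase gene Cyld was higher (0.43).

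Inflammatory cytokines were mostly lower in Protocol 2. Tnf, which encodes the cytokine TNF-alpha, was at 28.3, 18.4 and 22.2 CPM in Protocol 2, against 1334, 1522 and 1198 CPM in Protocol 3 (-5.88, standard error 0.190, adjusted p = 3.31e-13), and Il1b, the pyrogen IL-1 beta, at 7.49, 5.41 and 5.22 CPM, against 1074, 1146 and 1438 CPM (-7.65). Il1a was at -6.44 and Ifnb1, interferon beta, at 1.39, 1.21 and 0.806 CPM in Protocol 2, against 13.9, 11.9 and 9.48 CPM in Protocol 3 (-3.36). The groups did not overlap for any of these genes, as for 80.5% of all genes. Of 22 cytokines and inhibitors 12 were lower, 9 at least 4-fold, and 8 higher. Of all genes 37.2% were lower, 14.4% at least 4-fold, and 40.1% higher. The higher cytokine genes included a pair of natural antagonists. Il1rn, which blocks the IL-1 receptor, was at 641, 703 and 619.8 CPM in Protocol 2, against 212, 225 and 177.1 CPM in Protocol 3 (1.68), and Il18bp, which captures IL-18, at 134.1, 218 and 212 CPM, against 10.3, 9.33 and 10.9 CPM (4.21). Il18 itself rose too (2.15), and Il15 (14.8 ± 3.18 CPM in Protocol 2 and 14.4 ± 2.80 CPM in Protocol 3) and Il12b (2.12 ± 0.180 and 3.28 ± 1.16 CPM) were not called.

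Among 24 CC and CXC chemokines, 10 were higher, 5 at least 4-fold, and 12 lower, 10 at least 4-fold. The shares of all genes were 40.1% higher, 15% at least 4-fold, and 37.2% lower, 14.4% at least 4-fold. The neutrophil attractant gene Cxcl2 was at 7.90, 4.46 and 4.54 CPM in Protocol 2, against 1018, 1198 and 1051 CPM in Protocol 3 (-7.59, standard error 0.300, adjusted p = 1.48e-10). Cxcl3 was at -6.25, Ccl3 at -3.94, Ccl4 at -3.65 and Cxcl10, an attractant of T cells, at -3.75. On the other side Ccl6 was at 4584, 4845 and 4977 CPM in Protocol 2, against 29.2, 28.98 and 29.95 CPM in Protocol 3, Ccl5, which attracts T cells and monocytes, at 2486, 3068 and 3026 CPM, against 122.9, 120.3 and 82.8 CPM (4.72), and Ccl9 at 2995 ± 87.7 CPM and 467 ± 30.3 CPM (2.68). The monocyte attractants Ccl12 (2.85), Ccl7 (1.16) and Ccl2 (0.85) were higher by less, and the call of Ccl2 was lost without Protocol 3 replicate 1 (0.73) or 2 (0.84). Cx3cl1, the ligand of the fractalkine receptor, was at 12.2 ± 2.56 CPM in Protocol 2 and 14.99 ± 4.31 CPM in Protocol 3 and not called, nor was Cxcl13 (0.0278 and 0.0722 CPM). Of 20 chemoattractant receptor genes 7 were higher and 8 lower, near the 40.1% and 37.2% of all genes. Gpr183, an oxysterol receptor, was at -5.996, while Ccrl2 (61.7 ± 5.66 and 78.6 ± 8.59 CPM) and Fpr2 (14.3 ± 1.59 and 9.34 ± 2.85 CPM) were not called. Fpr2 was called without Protocol 3 replicate 2 (0.90). The summed CPM of the chemokine list was 11320.3, 12313 and 12572 in Protocol 2, against 10064, 10523 and 9156 in Protocol 3, a small gap beside those of its leading members.

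Promoter sequences were compared as well. The 150 bases before the start of Cxcl2, Cxcl3 and Nfkbia are printed because all 3 hold a match to the NF-kB motif, in capitals (GGGANTTTCC or GGGANTTCC, on either strand, in RefSeq's GRCm38.p6, 5′ to 3′ along each gene, with the match in Nfkbia on the opposite strand). Cxcl2 is on the plus strand at chr5:90903749-90903898, Cxcl3 on the plus strand at chr5:90785951-90786100 and Nfkbia on the minus strand at chr12:55492648-55492797.
Cxcl2: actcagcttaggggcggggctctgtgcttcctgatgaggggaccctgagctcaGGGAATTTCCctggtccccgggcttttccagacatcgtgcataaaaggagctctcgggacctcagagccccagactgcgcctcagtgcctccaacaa
Cxcl3: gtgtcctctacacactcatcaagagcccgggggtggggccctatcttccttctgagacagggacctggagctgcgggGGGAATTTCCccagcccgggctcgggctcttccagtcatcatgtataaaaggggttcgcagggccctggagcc
Nfkbia: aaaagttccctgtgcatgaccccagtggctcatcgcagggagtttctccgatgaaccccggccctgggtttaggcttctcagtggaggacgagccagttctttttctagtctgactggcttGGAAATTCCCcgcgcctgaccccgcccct
In the 250 bases before the start, 8 of 15 NF-kB subunit and inhibitor genes with a RefSeq promoter (53.3%) and 5 of 17 chemokines (29.4%) held either form of the motif, against 2.64% of 11500 genes tested and 2.03% of all 27018 promoters. The 5 chemokines were Cxcl1 (-2.05), Cxcl2, Cxcl3 and Cxcl10, which were lower in Protocol 2, and Cxcl9, which was higher (1.91). A match is a description of the sequence and not a measured site.

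Sensors of microbial and damage signals had no common direction, with 13 of 27 Toll-like receptor genes and adaptors higher and 11 lower. Receptors of the endosome, which read nucleic acids, were mostly higher: Tlr7 (0.96), Tlr8 (4.67) and Tlr3 (2.28), with Tlr9 at 148.7 ± 40.7 CPM in Protocol 2 and 221 ± 11.4 CPM in Protocol 3 and not called. Tlr2 was lower (-2.12) and so was Cd14, the co-receptor that hands ligands to TLR4, at 280.2, 210.1 and 227 CPM in Protocol 2, against 3051, 3139 and 2951 CPM in Protocol 3 (-3.67). Tlr4 itself, one of the receptors of HMGB1, was higher by 0.50, a call lost without Protocol 3 replicate 1 (0.41) or 2 (0.40), while Ager, which encodes the HMGB1 receptor RAGE, was below 1 CPM in the means of both groups (0.304 and 0.776). The call of Ager was lost without Protocol 2 replicate 1 (-1.15), 3 (-0.87) or Protocol 3 replicate 2 (-1.27). Ager was at -2.16 without Protocol 2 replicate 2. The adaptor kinase gene Irak2 was lower (-2.40), and Irak3, its inhibitory relative, was at 19.5 ± 0.301 CPM and 18.9 ± 3.61 CPM and not called. Nlrp3, the sensor of the inflammasome, was at 19.9, 19.4 and 18.9 CPM in Protocol 2, against 969, 979 and 948 CPM in Protocol 3 (-5.64).

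The interferon response stood on the side of the cultured cells although Ifnb1 did not. Of 43 interferon response genes, 26 were higher, 16 of them at least 4-fold against 15% of all genes, and 9 lower, with a median of 1.79. Ifi44 had the largest change (4.76). Irf7, the factor that amplifies interferon production, was at 1723, 2048 and 2174 CPM in Protocol 2, against 89.04, 97.9 and 67.7 CPM in Protocol 3 (4.55, standard error 0.666, adjusted p = 8.23e-05). Bst2, a protein that tethers budding virions to the cell, was at 1003, 1038 and 1147 CPM, against 72.8, 69.8 and 63.3 CPM (3.95), and Ifitm3, which blocks viral entry, at 3.78. Gbp2 (3.33) and Isg15 (1.53) rose with them. The receptor genes were slightly lower, Ifnar1 at -0.30 and Ifnar2 at -0.84, as were Irf1 (-2.42) and Irf5 (-2.67). The call of Isg15 was lost without Protocol 2 replicate 3 (1.46) or without Protocol 3 replicate 2 (1.59) or 3 (1.42). Some strongly inducible members were not called, Ifit1 at 299, 407 and 399 CPM in Protocol 2, against 247, 227 and 167.2 CPM in Protocol 3, and Rsad2 at 512, 776 and 722 CPM, against 604, 613 and 413 CPM. In both of these genes replicate 1 of Protocol 2 was the lowest of its group.

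Of 34 tested interferon response genes with a RefSeq promoter, 15 (44.1%) held the interferon element GAAANNGAAA on either strand in the 250 bases before the start, against 3.37% of 11500 genes tested. Isg15 (chr4:156200819-156200968, minus strand), Bst2 (chr8:71537473-71537622, minus strand) and Gbp2 (chr3:142620513-142620662, plus strand) are shown as higher genes of this kind, with the matches in capitals. Overlapping matches run together in Isg15 and Bst2, and the match in Gbp2 lies on the opposite strand.
Isg15: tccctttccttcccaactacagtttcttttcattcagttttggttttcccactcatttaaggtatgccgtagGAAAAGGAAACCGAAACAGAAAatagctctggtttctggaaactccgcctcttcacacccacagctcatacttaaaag
Bst2: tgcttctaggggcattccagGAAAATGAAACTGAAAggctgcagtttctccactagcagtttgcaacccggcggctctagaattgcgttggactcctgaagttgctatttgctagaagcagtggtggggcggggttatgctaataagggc
Gbp2: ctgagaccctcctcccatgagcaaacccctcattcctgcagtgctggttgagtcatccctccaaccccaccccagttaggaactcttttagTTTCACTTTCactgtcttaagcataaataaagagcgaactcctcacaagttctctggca

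Genes of the stress responses were lower in the cultured cells. Of 19 heat shock chaperones, 17 were lower, 11 at least 4-fold. Hspa1a, the inducible HSP70, was at 4.79, 2.71 and 5.47 CPM in Protocol 2, against 2494, 3145 and 5444 CPM in Protocol 3, and Hsp90aa1, the inducible HSP90, at 266, 251 and 273 CPM, against 5960.0, 6194 and 9844 CPM. The acute libraries differed among themselves here: the summed CPM of the list was 32347, 33832 and 50001 in Protocol 3, with replicate 3 highest, against 3899.7, 3842 and 4237 in Protocol 2. The small chaperone gene Hspb1 was at -6.32, and Chordc1 at 52.5 ± 2.23 CPM in Protocol 2 and 60.4 ± 4.43 CPM in Protocol 3 without a call. Hspa8, the constitutive HSP70, fell by 2.97 and Hsf1, the factor that drives the response, by 1.36 on the log2 scale, and Ahsa1, a cofactor of HSP90, was the higher member (0.51).

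Among 25 genes of the pentose phosphate path and of NRF2, the factor of the antioxidant response, 19 were lower and 6 higher. The antioxidant element TGACNNNGC was found on either strand in 6 of 21 promoters of this list (28.6%), against 13.8% of genes tested. Some lists of other function had a similar share, so it was not particular to this list. It was 30.8% for the EGR, NR4A, IER and KLF genes and 27.3% for the lysosomal hydrolases. Txnrd1, a thioredoxin reductase, was at 167.9, 144.6 and 145.8 CPM in Protocol 2, against 4282, 4135 and 3791 CPM in Protocol 3 (-4.74, standard error 0.136, adjusted p = 1.90e-16). The subunits of glutathione synthesis Gclc (-4.36) and Gclm (-4.004), the cystine carrier gene Slc7a11 (-3.27), Srxn1 (-3.98) and Hmox1, which degrades haem (-1.94), fell with it. The peroxidase genes Gpx1 (2.93), Gpx4 (1.34) and Prdx5 (2.11) went the other way. The integrated stress response was lower as well, with 19 of 28 genes lower, such as Ppp1r15a, which ends the block of translation (-4.89), Atf4, its central factor (-2.48), Chac1, which degrades glutathione (-3.94), Herpud1, of the disposal of misfolded proteins (-3.21), and the amino acid carrier genes Slc7a5 (-4.83) and Slc3a2 (-2.72). Members of the folding machinery of the endoplasmic reticulum were higher, Pdia4 at 1.63, Sdf2l1 at 1.59 and Dnajb11 at 1.40, and Ddit3, which encodes the factor CHOP, was not called (108.4 ± 8.42 CPM in Protocol 2 and 115.1 ± 8.66 CPM in Protocol 3), nor was the chaperone gene Hsp90b1 (425 ± 22.7 and 422 ± 26.5 CPM).

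Of 19 circadian clock genes, 13 were lower in Protocol 2. Per1, a repressor of the clock that stimuli can also induce, was at 23.7, 23.2 and 24.6 CPM in Protocol 2, against 549, 556 and 639.6 CPM in Protocol 3 (-4.61), and Nr1d1, the repressor REV-ERB alpha, at 12.2 ± 0.949 CPM and 117.9 ± 7.63 CPM (-3.28). Ciart (-5.88), Per2 (-3.81) and Cry2 (-3.47), all repressors of the clock, fell too, and Tef was not called (60.2 ± 8.95 and 56.4 ± 4.38 CPM). Tef was called without Protocol 2 replicate 1 (0.26). Clock and Arntl, the activators, changed less, by -0.50 and -0.79. Dbp, an output gene whose level follows the time of day, was at 14.7, 20.5 and 18.97 CPM in Protocol 2, against 14.7, 16.5 and 21.95 CPM in Protocol 3 and was not called (adjusted p = 0.932).

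**Figure D3:**
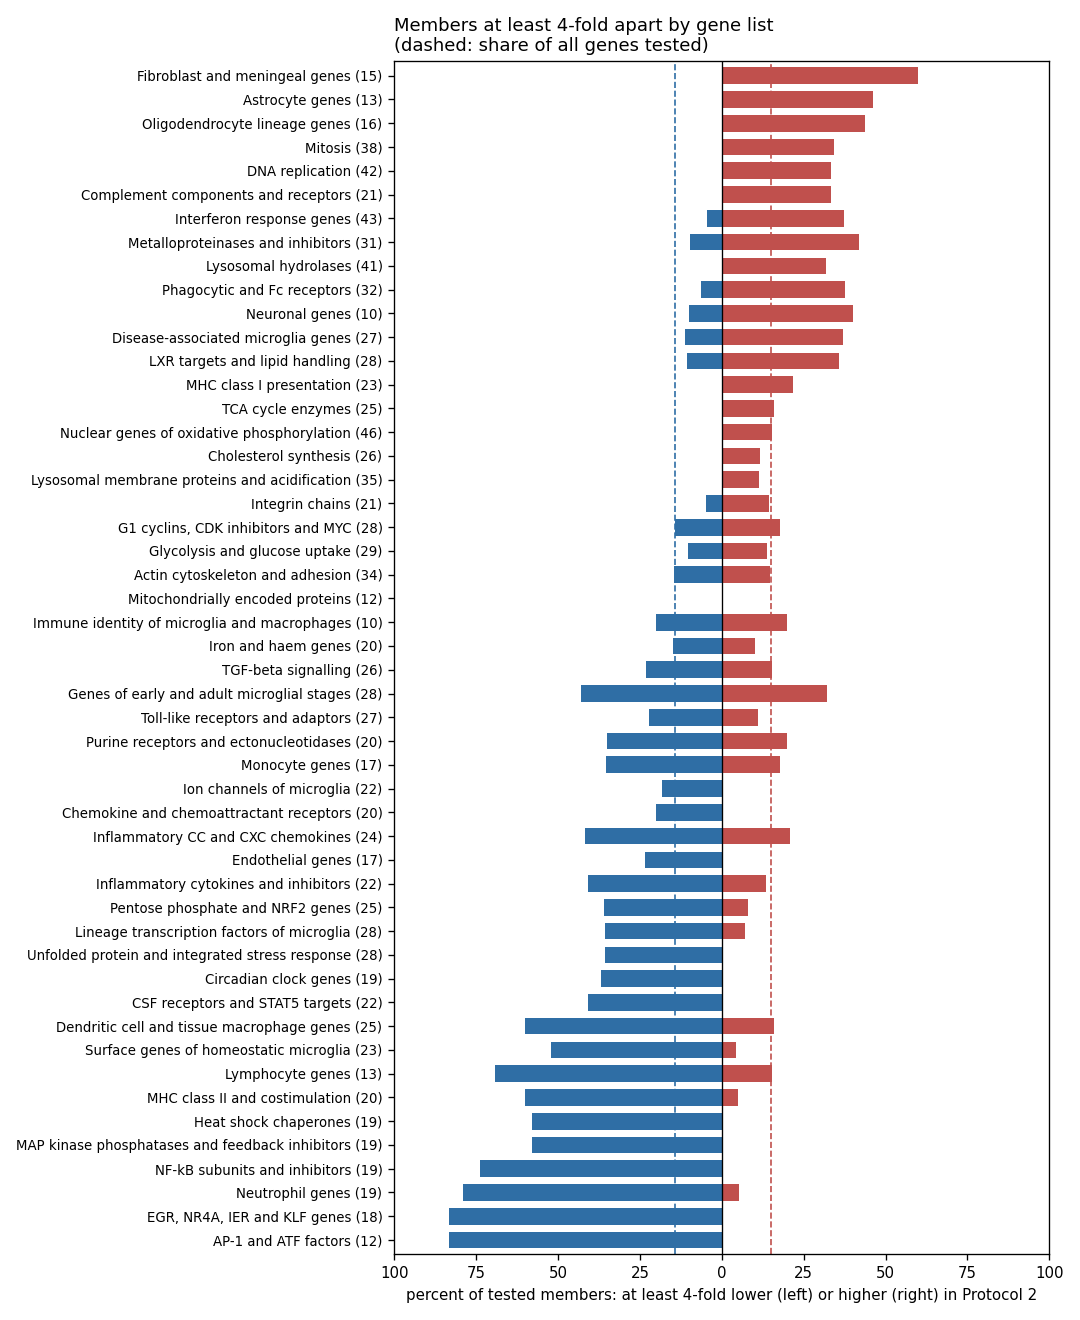
Percent of the tested members of each gene list (number tested in parentheses) that were at least 4-fold lower (left, blue) or at least 4-fold higher (right, red) in Protocol 2 than in Protocol 3 Control, for the 50 lists of 10 or more members. Dashed lines mark the shares among all genes tested, 14.4% lower and 15% higher; AP-1 and EGR genes lie at the bottom, and fibroblast and astrocyte genes at the top.

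Genes of phagocytosis were mostly higher. Of 32 phagocytic and Fc receptor genes, 26 were higher in Protocol 2, 12 at least 4-fold, and 3 lower, with a median of 1.51. Fcgr4, an activating receptor for IgG, was at 261, 342 and 365 CPM in Protocol 2, against 4.08, 5.44 and 5.55 CPM in Protocol 3 (5.998, standard error 0.303, adjusted p = 2.46e-09). The high-affinity receptor gene Fcgr1 was at 4.51 and Fcgr2b, the inhibitory one, at 3.32. Bridging proteins that coat dying cells rose along with the receptors, Mfge8 from the phosphatidylserine path at 785 ± 60.01 CPM in Protocol 2 and 20.9 ± 2.30 CPM in Protocol 3, and Gas6, a ligand of receptor kinases, at 2.94. Of these kinases Mertk was higher (1.33), while Axl was at 271 ± 25.3 CPM and 265 ± 17.99 CPM and not called, like Olr1, a receptor for oxidized lipoprotein (4.68 ± 0.750 and 6.85 ± 2.12 CPM). Olr1 was called without Protocol 3 replicate 3 (-0.74). The 3 lower members were Timd4, a phosphatidylserine receptor (-4.15, and -4.76 without Protocol 2 replicate 3), Elmo1, which links engulfment to the cytoskeleton (-2.75), and the integrin chain gene Itgav (-1.70).

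Complement genes were higher for 18 of 21. The subunits of C1q, which tag synapses and debris, rose modestly, C1qa by 0.57, C1qb by 0.51 and C1qc by 1.27, and C3, the central component, was at 189.2, 248 and 241 CPM in Protocol 2, against 63.97, 90.2 and 60.01 CPM in Protocol 3 (1.66). Cfp, which encodes properdin, the stabilizer of the alternative path, was at 125.2, 149.4 and 134.2 CPM, against 5.32, 7.61 and 7.51 CPM (4.31), C2, a protease of the classical path, at 4.36, C1ra, of the C1 complex, at 5.37, and the inhibitor gene Serping1 at 4.40. Cd46 was below 1 CPM and not called (0.774 CPM in Protocol 2 and 0.794 CPM in Protocol 3). The receptor gene C5ar1 was lower (-1.26).

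Lysosomal hydrolases were higher for 36 of 41, 13 of them at least 4-fold, and lower for 2, with a median of 1.55. Their summed CPM was 95786, 102435 and 105803 in Protocol 2, against 32681, 30528 and 27077 in Protocol 3. Ctsd, an aspartic protease, was at 19114, 19624 and 19857 CPM in Protocol 2, against 2249, 2176 and 2199 CPM in Protocol 3 (3.14, standard error 0.0961, adjusted p = 1.89e-16), Glb1, which encodes beta-galactosidase, at 223, 249.7 and 262 CPM, against 15.6, 14.4 and 16.8 CPM (3.97), and Sgsh, which degrades heparan sulfate, at 4.15. Ctsk, the collagenase of osteoclasts, showed the largest change of the list (4.74), Acp2, a phosphatase, was at 3.82, Neu1, a sialidase, was not called (183.6 ± 18.1 and 166.8 ± 4.64 CPM), and Gla (-0.62) and Scpep1 (-0.58) were the lower members. Membrane proteins and pumps of the same organelle did not follow as a group: 18 of 35 were higher and 14 lower, with a median of 0.31. Lamp1 (1.95), Lamp2 (1.41), the proton channel gene Tmem175 (2.79), Ostm1, a partner of the chloride exchanger (2.17), and the sialic acid exporter gene Slc17a5 (3.70) were higher, and Laptm5 was not called (1816 ± 200.3 and 1596 ± 140.2 CPM). Neu1 was called without Protocol 2 replicate 1 (0.23) or 2 (0.20). Laptm5 was called without Protocol 2 replicate 1 (0.32). Many subunits of the proton pump were lower by less than 2 log2 units, such as Atp6v1h (-1.65) and Atp6v1a (-0.94), as were Tfeb (-1.15) and Tfe3 (-1.16), the factors that drive lysosomal genes. Atp6v0d2, given above, stood far from the other pump subunits, and its ubiquitous isoform Atp6v0d1 was at 228 ± 1.79 CPM in Protocol 2 and 216 ± 22.9 CPM in Protocol 3 without a call, as was Atp6v0c (219 ± 8.47 and 229 ± 11.2 CPM).

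TFEB and its relatives bind the motif TCACGTG in lysosomal promoters. In the 250 bases before the start it was found, on either strand, in 9 of 33 hydrolase genes with a RefSeq promoter (27.3%), Arsa, Ctsa, Ctsd, Gaa, Gla, Glb1, Lgmn, Naglu and Sgsh, against 5.54% of 11500 genes tested. Of these 9, Gla was lower and the other 8 were higher. Of all 41 hydrolases tested 36 were higher, a similar share. Among tested genes with a promoter, the motif was in 3.98% of those at least 4-fold higher and 6.08% of those at least 4-fold lower. Glb1 (chr9:114400928-114401077, plus strand), Ctsd (chr7:142387828-142387977, minus strand) and Sgsh (chr11:119355511-119355660, minus strand) are shown with the motif in capitals, which in Ctsd reads the same on both strands and in Sgsh lies on the opposite strand.
Glb1: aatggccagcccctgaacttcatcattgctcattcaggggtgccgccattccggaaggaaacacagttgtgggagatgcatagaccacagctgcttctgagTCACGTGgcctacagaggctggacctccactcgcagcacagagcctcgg
Ctsd: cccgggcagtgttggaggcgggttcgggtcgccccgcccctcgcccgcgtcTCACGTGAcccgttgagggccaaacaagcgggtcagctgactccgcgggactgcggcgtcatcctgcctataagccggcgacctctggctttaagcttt
Sgsh: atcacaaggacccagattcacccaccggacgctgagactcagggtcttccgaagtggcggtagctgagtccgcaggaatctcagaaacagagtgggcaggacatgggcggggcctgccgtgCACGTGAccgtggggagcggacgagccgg

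Genes known from disease-associated microglia, a state described around amyloid plaques in mice, were higher for 19 of 27 and lower for 5. Clec7a, a receptor for fungal glucans, was at 1470.4, 1456 and 1351 CPM in Protocol 2, against 49.4, 49.4 and 73.5 CPM in Protocol 3 (4.63), Igf1, a growth factor, at 445, 495 and 471 CPM, against 10.9, 14.6 and 13.9 CPM (5.16), and Spp1 at 6.08. Apoe, the lipid carrier that usually belongs to the same state, was at 772, 758 and 673 CPM in Protocol 2, against 1044, 1018 and 982 CPM in Protocol 3, a small fall (-0.47, standard error 0.125, adjusted p = 0.00223), and Cd9 was lower (-2.42). In the Controls of the neonatal protocols Apoe averaged 6338 CPM in 1A, 10527 CPM in 1B and 20734 CPM in 1C, and Protocol 2 lay below their mean by a log2 fold change of -3.92 (edgeR, adjusted p = 2.69e-14).

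Lipid handling leaned to the cultured cells, with 18 of 28 genes higher and 8 lower. Plin2, which coats lipid droplets, was at 2086, 1994 and 2012 CPM in Protocol 2, against 298, 258 and 293 CPM in Protocol 3 (2.84), Abca1, the cholesterol exporter, at 606 ± 76.9 CPM and 92.2 ± 11.97 CPM (2.72), and Soat1, which esterifies cholesterol, at 2.35. Mylip, a target of the same LXR receptors that degrades the LDL receptor, was lower (-3.40), and Pltp, a phospholipid transfer protein (106.6 ± 14.1 CPM in Protocol 2 and 116.6 ± 7.66 CPM in Protocol 3), and Fabp3 (50.5 ± 4.44 and 36.3 ± 3.17 CPM) were not called. Enzymes of cholesterol synthesis were higher for 14 of 26, lower for 4 and not called for 8, against 40.1% higher and 37.2% lower of all genes. Only 3 of the 26 were at least 4-fold higher, against 15% of all genes. Dhcr7, the last step, was at 3.31, Hsd17b7 at 2.39, Nsdhl at 1.89 and Lss at 1.84. Hmgcs1 (47.5 ± 10.6 and 41.9 ± 4.55 CPM) and Insig1, a brake on synthesis (47.4 ± 9.02 and 46.7 ± 2.05 CPM), were not called.

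Energy metabolism differed by pathway. Of 46 nuclear genes of the respiratory chain and ATP synthase, 40 were higher and 1 was lower, Ndufs8 (-0.68), and 7 reached 4-fold, against 15% of all genes. Cox6c, a subunit of complex IV, was at 98.6, 104.1 and 107.9 CPM in Protocol 2, against 22.5, 21.3 and 18.9 CPM in Protocol 3 (2.31), and Ndufa1 (2.34), Ndufb3 (2.27) and Cox7a2 (2.24) moved by as much. The ATP synthase genes Atp5b (573 ± 24.4 and 599 ± 46.8 CPM) and Atp5a1 (444 ± 21.1 and 449.6 ± 29.1 CPM) were not called. Of 12 proteins encoded by mitochondria 4 were higher and 3 lower, with mt-Co1 at 1.45, mt-Nd6 at 1.04, mt-Nd5 at 0.71 and mt-Nd2 at -0.88, and without a call for mt-Nd4 (428 ± 68.1 and 439 ± 27.9 CPM) and mt-Co3 (14.6 ± 3.86 and 15.9 ± 1.93 CPM). Enzymes of the TCA cycle were higher for 18 of 25, but only 4 of the 25 by at least 4-fold, near the 15% of all genes. They were led by the cytosolic isocitrate dehydrogenase Idh1 at 134.3, 137.5 and 137.3 CPM in Protocol 2, against 7.92, 8.27 and 7.17 CPM in Protocol 3 (4.13). Pdhb, a subunit of pyruvate dehydrogenase, was lower (-1.68), Suclg1 (2.26), Idh2 (2.16) and Sdhb (2.01) were higher, and Ogdh was not called (184.1 ± 8.76 and 188.9 ± 27.1 CPM). Glycolysis was split within the path. The late enzymes Eno1 (2.01), Pgam1 (2.24) and Ldha (2.77) were higher, and the glucose transporter genes Slc2a1 (-2.76) and Slc2a3 (-1.45), the activating kinase Pfkfb3 (-1.49) and Hif1a, which encodes the hypoxia factor (-1.99), were lower. Eno2, the neuronal enolase, fell (-2.47). Hk2 (94.3 ± 2.17 CPM in Protocol 2 and 94.7 ± 10.4 CPM in Protocol 3) and Aldoa (861 ± 60.9 and 865 ± 50.6 CPM) were not called.

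Iron genes were even, 9 higher and 9 lower of 20. The exporter gene Slc40a1, ferroportin, was at 139.4, 167.6 and 180.8 CPM in Protocol 2, against 1984, 1848 and 1828 CPM in Protocol 3 (-3.54), and the reductase gene Steap3, which helps release iron from endosomes, at 5.06. Cp, the ferroxidase ceruloplasmin, was higher (3.28), as was Fth1 (1.83), and Ftl1 was lower (-0.46). Tfrc, the transferrin receptor, was at 83.4 ± 8.09 CPM in Protocol 2 and 92.6 ± 4.86 CPM in Protocol 3 and not called, and Hpx was below 1 CPM.

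The cultured cells held more transcripts of cell division, at low levels. Of 42 DNA replication genes 30 were higher, 14 at least 4-fold, and 6 lower, and of 38 mitosis genes 32 were higher, 13 at least 4-fold, and 3 lower. E2f1, a factor that opens S phase, was at 34.5, 37.1 and 38.9 CPM in Protocol 2, against 2.54, 3.44 and 2.65 CPM in Protocol 3 (3.68, standard error 0.125, adjusted p = 8.63e-16), and Cdk1, the kinase of mitosis, at 9.95, 9.78 and 9.89 CPM, against 1.48, 1.05 and 1.08 CPM (3.04). Mki67, the usual mark of dividing cells, was at 18.9, 19.4 and 21.6 CPM, against 12.5, 17.99 and 9.58 CPM (0.58, a call lost without Protocol 3 replicate 3, where it was 0.39). The helicase genes Mcm5 (2.48) and Mcm4 (2.39), Rrm1, for nucleotide supply (2.46), and the mitotic genes Mad2l1 (3.37), Tpx2 (2.83), Top2a (1.56) and Pttg1 (1.42) were higher. Rfc5 (12.7 ± 0.103 CPM in Protocol 2 and 14.2 ± 2.01 CPM in Protocol 3), Mcm10 (6.97 ± 1.45 and 8.62 ± 1.71 CPM), Bub1b (4.75 ± 0.437 and 3.50 ± 1.37 CPM) and Cdc20 (1.99 ± 0.385 and 2.54 ± 0.379 CPM) were not called. Mad2l1 was at 3.99 without Protocol 3 replicate 3. Rfc5 was called without Protocol 3 replicate 2 (-0.26). Mcm10 was called without Protocol 3 replicate 3 (-0.45). Bub1b was called without Protocol 3 replicate 3 (0.75). Pcna, the sliding clamp, fell by 0.34 and Cdt1, which licenses origins, by 1.88 on the log2 scale. Regulators of G1 were divided. Ccng1 (3.38), Rbl2 (3.07) and Ccne1 (2.59) were higher. Cdk6, the partner of D cyclins, was lower at 103.7, 106.8 and 101.5 CPM in Protocol 2, against 1092, 1123 and 933 CPM in Protocol 3 (-3.33), with Myc at -3.43 and the inhibitor gene Cdkn1a at -1.06. The inhibitor gene Cdkn1b (25.5 ± 1.82 and 24.4 ± 1.22 CPM) and Cdk2 (18.7 ± 0.398 and 20.9 ± 1.78 CPM) were not called.

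Adhesion and matrix genes changed in both directions. Of 31 proteinase and inhibitor genes, 18 were higher, 13 at least 4-fold, and 7 lower. Mmp12, the elastase of macrophages, was at 4007, 3822 and 3943 CPM in Protocol 2, against 135.9, 129.1 and 222 CPM in Protocol 3 (4.59), and Adam8, a protease of activated leukocytes, at 1763 ± 131.7 CPM and 223 ± 35.4 CPM (2.98). Timp1, an inhibitor, was at 7.18, and the sheddase genes Adam17 (203 ± 3.10 CPM in Protocol 2 and 218 ± 17.2 CPM in Protocol 3) and Adam10 (174.5 ± 8.59 and 168.2 ± 7.44 CPM) were not called. Timp1 was at 8.20 without Protocol 3 replicate 3. Urokinase and its receptor, Plau (-5.01) and Plaur (-4.004), were lower. Of 21 integrin chain genes 10 were higher and 3 lower, against 40.1% and 37.2% of all genes. Itga5, the fibronectin receptor chain, was at 199.1, 171.5 and 173.4 CPM in Protocol 2, against 3237, 3487 and 2746 CPM in Protocol 3 (-4.12). Itga7 (2.80) and Itga3 (2.26), laminin receptor chains, were higher, and Itgal (47.6 ± 2.22 and 50.6 ± 9.52 CPM) and Itga4 (38.04 ± 5.30 and 38.6 ± 7.25 CPM) were not called. Among 34 cytoskeletal genes the thymosins Tmsb4x (2.55) and Tmsb10 (2.33), which hold actin monomers, and the capping protein gene Capg (2.84) were higher. Anxa1, an anti-inflammatory annexin, was higher too (3.02). Actb (-0.69), the bundling protein gene Fscn1 (-2.97), Ezr (-3.13) and Marcksl1 (-3.73) were lower, and Pfn1 (626 ± 28.2 and 592 ± 26.1 CPM) and Actn1 (112.1 ± 12.3 and 96.5 ± 16.2 CPM) were not called. Actn1 was called without Protocol 2 replicate 2 (0.29), 3 (0.29) or Protocol 3 replicate 1 (0.34).

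Surface receptors by which microglia sense nucleotides exchanged places. P2rx4, an ATP-gated channel of reactive microglia, was at 480.1, 568 and 608 CPM in Protocol 2, against 54.98, 53.1 and 58.6 CPM in Protocol 3 (3.31), and P2ry14, the receptor for UDP-glucose, at 5.12. P2rx7, the channel that triggers the inflammasome, was at 81.5, 99.8 and 101.9 CPM, against 912, 925 and 1152 CPM (-3.40), and Adora2a, an adenosine receptor, at -4.55, while Adora2b was not called (4.58 ± 0.809 and 4.35 ± 1.41 CPM). Over the list, 12 of 20 genes were higher and 7 lower. Of 22 ion channel genes 6 were higher and 14 lower, with Kcnk13, the potassium channel THIK-1, at 48.6 ± 1.81 CPM in Protocol 2 and 426 ± 30.4 CPM in Protocol 3 (-3.13), Ryr1, a calcium release channel, at -7.63, Clic4 at -3.01 and Itpr2 at -1.78. Kcnj2 (35.6 ± 1.30 and 36.3 ± 12.9 CPM) and Trpm4 (27.3 ± 2.80 and 28.1 ± 0.513 CPM) were not called. Kcnj2 was called without Protocol 3 replicate 3 (0.30).

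Transcripts of other cells set the groups apart and differed between the libraries of a group. Genes known from blood cells were higher in Protocol 3, although perfusion and, for lymphocytes and red cells, the selection for CD11b are steps that should remove such cells: 16 of 19 neutrophil genes, 11 of 13 lymphocyte genes and all 5 erythroid genes were lower in Protocol 2, with medians, zeros taken at their bound, of -5.02, -5.71 and -8.52. S100a9, a calcium-binding protein of neutrophils, was at 145.3, 277 and 142.0 CPM in Protocol 3 and had 0 counts in Protocol 2, at least 4515-fold lower there when 3 counts over the group are taken as the floor. Replicate 2 of Protocol 3 was the highest, as it was for Ngp, a granule protein, at 132.9, 260.2 and 109.6 CPM. Retnlg and the eosinophil gene Prg2 also had 0 counts in Protocol 2, against 9.99, 19.2 and 10.4 CPM and 8.16, 25.99 and 10.8 CPM in Protocol 3. Ltf, lactoferrin, fell (-7.25), and Mmp9 was not called (15.1 ± 1.96 CPM in Protocol 2 and 14.3 ± 4.52 CPM in Protocol 3). Mmp9 was called without Protocol 3 replicate 2 (0.34). Hbb-bs, which encodes beta-globin, had 0 counts in Protocol 2 as well, against 375, 340.2 and 214 CPM in Protocol 3, at least 7435-fold lower. The other globin genes had 0 counts in Protocol 2 too, against 352, 268 and 167.5 CPM for Hba-a1, 19.8, 17.1 and 9.08 CPM for Hbb-bt and 12.7, 19.3 and 10.3 CPM for Hba-a2 in Protocol 3, and so had Gzmb, granzyme B, at 13.3, 18.4 and 6.68 CPM in Protocol 3. Cd4 was higher (2.84). Of 17 monocyte genes 8 were lower and 5 higher, with Treml4 at -5.22 and Spn at -3.95, and without a call for Ace (19.6 ± 2.74 CPM in Protocol 2 and 23.8 ± 2.92 CPM in Protocol 3) and Hp (14.9 ± 4.69 and 20.95 ± 8.14 CPM). Treml4 was at -6.07 without Protocol 2 replicate 1. The monocyte sum was carried in Protocol 3 by Nr4a1, the early gene named above (1327, 1299 and 1649 CPM). Without it the sum turned, at 586, 638 and 601 CPM in Protocol 2, against 351, 441 and 303 CPM in Protocol 3. The lymphocyte sum overlapped between the groups without Ighm, at 29.97, 30.7 and 35.2 CPM in Protocol 2, against 44.8, 56.1 and 34.3 CPM in Protocol 3. These sums, and others taken without their highest member, were computed after the data were seen. The globin genes and the immunoglobulin gene Ighm (1.56, 1.92 and 1.95 CPM in Protocol 2, against 169.4, 175.4 and 210.0 CPM in Protocol 3) have close copies that can share reads. The endothelial list was lower for 12 of 17 genes, with Cldn5, the tight junction protein of brain vessels, at 5.04, 3.58 and 3.78 CPM in Protocol 2, against 16.97, 15.7 and 18.1 CPM in Protocol 3. Esam (-1.78) and Tie1 (-1.75) fell, and Kdr was not called (16.9 ± 0.292 and 20.1 ± 1.04 CPM). The endothelial sum was 380, 400 and 385 CPM in Protocol 2, against 830, 762 and 836 CPM in Protocol 3. Without Slc2a1, its highest member, the sum was 311, 338.6 and 320 CPM, against 375, 339.4 and 398 CPM, and the groups nearly met. Of 9 mural cell genes 3 were lower and 1 higher: Myh11, smooth muscle myosin, at -3.88, Acta2 at -0.90 and Pdgfrb at 2.06, with Cspg4 not called (7.55 ± 1.87 and 10.5 ± 0.642 CPM). Without Protocol 2 replicate 1 there were 5 lower mural genes. Myh11 was at -4.50 without Protocol 2 replicate 1. The call of Acta2 was lost without Protocol 2 replicate 2 (-0.79), 3 (-0.70), Protocol 3 replicate 1 (-0.94) or 3 (-0.78). Cspg4 was called without Protocol 2 replicate 1 (-0.64). The choroid plexus list held 5 lower of 9, among them Kl (-4.15), Enpp2 (-1.72) and Clic6 (-1.27), with Aqp1 (6.54 ± 1.28 and 5.45 ± 1.54 CPM) and Foxj1 (2.21 ± 0.110 and 4.31 ± 0.980 CPM) not called. Without Protocol 3 replicate 1 there were 3 lower choroid plexus genes. The call of Enpp2 was lost without Protocol 3 replicate 1 (-1.39). The call of Clic6 was lost without Protocol 3 replicate 1 (-0.89). The choroid plexus gene Ttr, which encodes transthyretin, was at 112.9, 97.3 and 146.8 CPM in Protocol 2, against 1057, 587 and 679 CPM in Protocol 3, with replicate 1 of Protocol 3 highest.

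Fibroblast and glial transcripts were higher in Protocol 2. The fibroblast list rose for 13 of 15 genes, 9 of them at least 4-fold, and its summed CPM was 572, 518 and 488 in Protocol 2, against 32.1, 27.2 and 37.8 in Protocol 3. Dcn, a matrix proteoglycan, was at 51.3, 38.3 and 36.1 CPM in Protocol 2, against 0.118, 0.444 and 0 CPM in Protocol 3 (7.81), and the chains of type I collagen were at 5.81 for Col1a2 and 5.96 for Col1a1, while Fap was not called (0.777 and 1.70 CPM). Gfap, the filament of astrocytes, was at 35.1, 20.8 and 18.7 CPM, against 0.296, 0.111 and 0.0982 CPM (7.20), and 10 of 13 astrocyte genes were higher, Aldh1l1 at 4.69 and Clu at 1.77 among them, with Slc1a3 (7.30 ± 0.743 and 9.11 ± 1.47 CPM) and Gja1 (6.32 ± 1.64 and 7.90 ± 1.14 CPM) not called. Both leading values depend on counts near 0 in Protocol 3: Dcn was at 9.46 without its replicate 2 and 7.17 without its replicate 3, and Gfap at 7.83 without its replicate 1. The oligodendrocyte list was higher for 12 of 16, with Cnp, a myelin enzyme, at 81.7, 84.6 and 84.8 CPM in Protocol 2, against 20.9, 19.5 and 17.8 CPM in Protocol 3, but its summed CPM overlapped between the groups (468, 376 and 371 in Protocol 2, against 537, 328 and 366 in Protocol 3). Without Enpp2, which the choroid plexus list holds too, this sum was 384, 296 and 269 CPM in Protocol 2, against 129.1, 111.5 and 115.2 CPM in Protocol 3 and did not overlap. Cldn11, a myelin claudin, was at 3.17, and Mag was not called (9.87 ± 2.52 and 7.71 ± 0.213 CPM). The call of Cldn11 was lost without Protocol 2 replicate 1 (2.76), Protocol 3 replicate 1 (3.32), 2 (2.92) or 3 (3.34). Mag was called without Protocol 2 replicate 2 (0.55). Of 10 neuronal genes 6 were higher, with Camk2a at 3.13 and without a call for Meg3 (2.71 ± 2.58 and 1.13 ± 1.02 CPM) and Tubb3 (2.11 ± 0.888 and 1.11 ± 0.727 CPM). Meg3 was called without Protocol 2 replicate 3 (1.67) or Protocol 3 replicate 1 (2.30). Meg3 was at 0.17 without Protocol 2 replicate 1. Tubb3 was called without Protocol 3 replicate 1 (1.42). Hormone transcripts of the pituitary were unevenly spread, with 2 of 5 genes higher and 1 lower. Prl, prolactin, was at 257, 28.9 and 18.1 CPM in Protocol 2, against 21.5, 3.39 and 1.37 CPM in Protocol 3 and was not called (adjusted p = 0.121). Pomc, the precursor of ACTH, was at 38.6, 3.37 and 6.07 CPM, against 2.48, 1.78 and 2.16 CPM (2.90, adjusted p = 0.00678). Without Protocol 2 replicate 1 its log2 fold change was 1.19, and 1 pituitary gene was higher. Gh, growth hormone, was at 10.4, 3.08 and 0.382 CPM, against 27.02, 1.39 and 3.44 CPM, and the pericyte gene Rgs5 at 29.6, 7.33 and 11.7 CPM, against 23.9, 16.7 and 20.3 CPM, neither called. Of the remaining genes that varied most within a group, Lars2 was at 1168, 36.4 and 918 CPM in Protocol 2, Rps27rt at 97.97, 46.2 and 26.96 CPM and Srp54b at 9.76, 32.2 and 20.8 CPM in Protocol 3, without a call. Rgs5 was called without Protocol 2 replicate 1 (-1.05). Srp54b was called without Protocol 3 replicate 1 (-1.73). Replicate 1 was the highest of each group for Prl and, in Protocol 2, also for Pomc, the fibroblast, astrocyte, oligodendrocyte and neuronal sums. The part of these cells in the matrix genes named above was not tested.

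**Figure D4:**
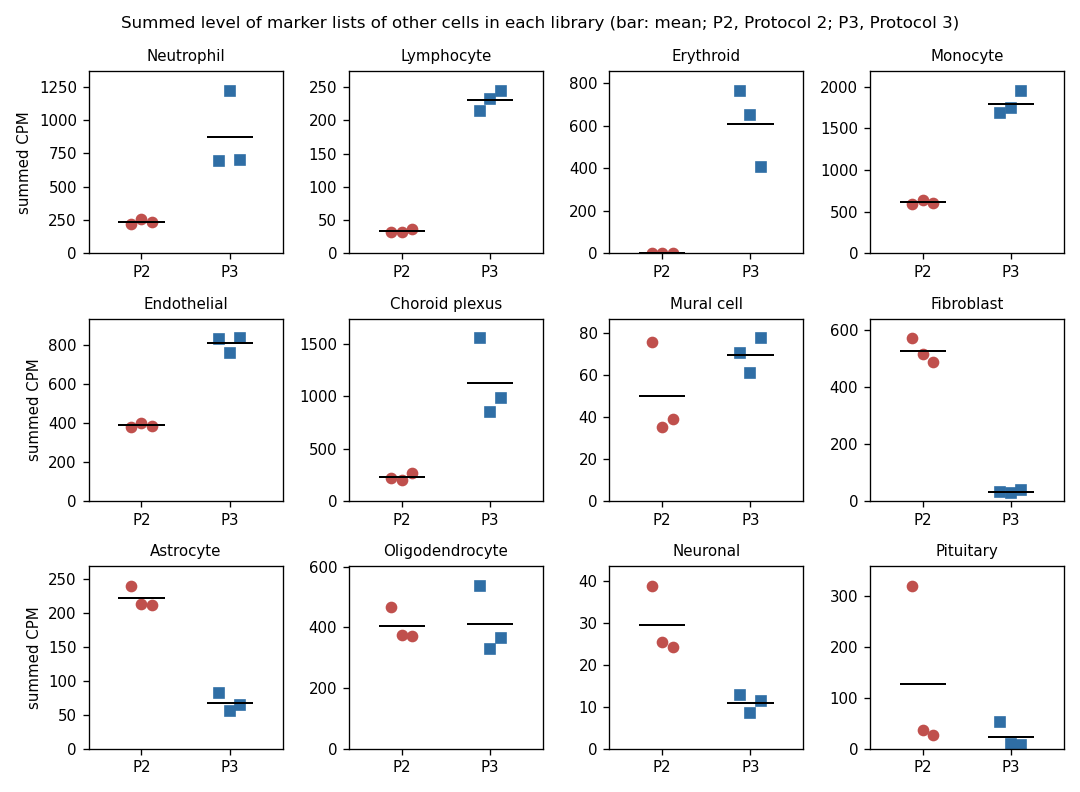
Summed TMM-scaled CPM (vertical axes, each from 0) of 12 marker lists of other cell types in the 3 libraries of Protocol 2 Control (left, red circles) and the 3 of Protocol 3 Control (right, blue squares), with bars at the means. Neutrophil, lymphocyte, erythroid, monocyte, endothelial and choroid plexus sums are lower in every Protocol 2 library. Fibroblast, astrocyte and neuronal sums are higher, and mural, oligodendrocyte and pituitary sums overlap. Without Nr4a1 the monocyte sum is higher in every Protocol 2 library, as is the oligodendrocyte sum without Enpp2. The lymphocyte sums overlap without Ighm, and the endothelial sums of the groups nearly meet without Slc2a1.

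Properties of the genes moved with the direction as well. Among 13842 protein-coding genes, 6262 were higher and 4903 lower. Cut into 5 groups of nearly equal size by the deposited length, the shortest genes, up to 2420 bases, had a median log2 fold change of 0.65 with 50.5% higher and 28.6% lower, and the longest, from 7514 bases, a median of -0.01 with 39.8% higher and 41.5% lower. The length of the gene to which the median count belonged was 4027, 4116 and 4038 bases in Protocol 2, against 4580, 4580 and 4486 bases in Protocol 3 (two-sided exact permutation p = 0.1, the smallest possible). Other classes of transcript went both ways. More genes were lower than higher in several non-coding classes: 58.6% of 633 genes of the annotation's provisional class TEC, 65.5% of 87 sense-intronic genes, 44.9% of 590 antisense genes and 23 of 31 small nucleolar RNA genes, against 9.32%, 4.6%, 16.9% and 1 higher. The balance was on the other side for transcribed unprocessed pseudogenes (50% of 38 higher and 21.1% lower), unprocessed pseudogenes (32.7% of 55 higher and 23.6% lower), long non-coding RNAs of bidirectional promoters (31.5% of 54 higher and 22.2% lower) and T cell receptor V genes (5 of 5 higher). The study reports better RNA yield and integrity for the cultured adult cells than for the acutely isolated ones. RNA quality therefore differs between the groups along with the protocol. Its part in these shares, and in the other differences between the groups, was not tested.

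The same contrast in the HMGB1 libraries, which the Control comparison does not use, gave similar counts, 41.2% of 16953 genes higher and 37.2% lower. Some replicates stood out alike in both conditions. Gm23935 was low in Protocol 2 replicate 2, at 25.9 CPM in the Control and 19.7 CPM with HMGB1. Adra2a was high in Protocol 3 replicate 3, at 715 and 535 CPM. Whether Control and HMGB1 libraries with the same replicate number came from the same isolation was not tested. Their agreement is therefore not shown to be that of independent isolations. Of 12861 genes called between the Controls and tested there, 12058 were called in the same direction and 3 in the opposite one. Of 4757 that were at least 4-fold apart in the Controls, 4657 were called the same way, 4195 of them by at least 4-fold. For single genes the values are given side by side, and their difference was not tested. Tnf was at 102.8, 73.4 and 75.9 CPM in Protocol 2, against 1698, 1729 and 1473 CPM in Protocol 3 with HMGB1 (-4.28), beside -5.88 in the Controls, and Il1b at -6.57, beside -7.65. Siglech (-9.92) and Gpnmb (9.63) had values close to those of the Controls, -9.64 and 9.42.

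Cultures of neonatal microglia, the Controls of Protocols 1A, 1B and 1C, place these values among the other protocols. Both contrasts use the Protocol 2 libraries, so their values are only set side by side. Against the mean of Protocol 1, 30.7% of genes were higher in Protocol 2 and 24.6% lower (55.3% in either direction), 11% at least 4-fold higher and 1.05% at least 4-fold lower. Gpnmb averaged 14838 CPM in Protocol 2, 7667, 9250.0 and 9010.4 CPM in 1A, 1B and 1C and 21.7 CPM in Protocol 3, and Egr1 27.4 CPM, 12.1, 32.2 and 84.97 CPM and 4663 CPM, so that all 4 cultures stood on one side of the acute cells. Of the surface genes of homeostatic microglia 18 of 23 were higher in Protocol 2 than in the neonatal cultures and 3 lower. In the comparison with Protocol 3, 15 of 28 genes known from early and adult stages of microglia were higher and 13 lower. Sparc, a secreted matrix protein, averaged 158.9 CPM in Protocol 2, 0.597, 22.1 and 10.2 CPM in 1A, 1B and 1C and 901 CPM in Protocol 3, and Sall1 41.5 CPM, 2.79, 10.98 and 3.26 CPM and 61.6 CPM, with the adult culture between. Other genes had their extreme in Protocol 2: Irf7 averaged 1982 CPM there, 253, 22.02 and 186.8 CPM in 1A, 1B and 1C and 84.9 CPM in Protocol 3, and 36 of 43 interferon response genes were higher in Protocol 2 than in Protocol 1. Ccl5 (6.73 against Protocol 1), Ccl6 (4.11) and H2-T22 (3.28) were higher than in Protocol 1 as well. Mki67 was lower in the adult than in the neonatal cultures (-2.19, adjusted p = 9.92e-08), at 19.97 CPM in Protocol 2, 108.5, 123.7 and 56.2 CPM in 1A, 1B and 1C and 13.4 CPM in Protocol 3.

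**Figure D5:**
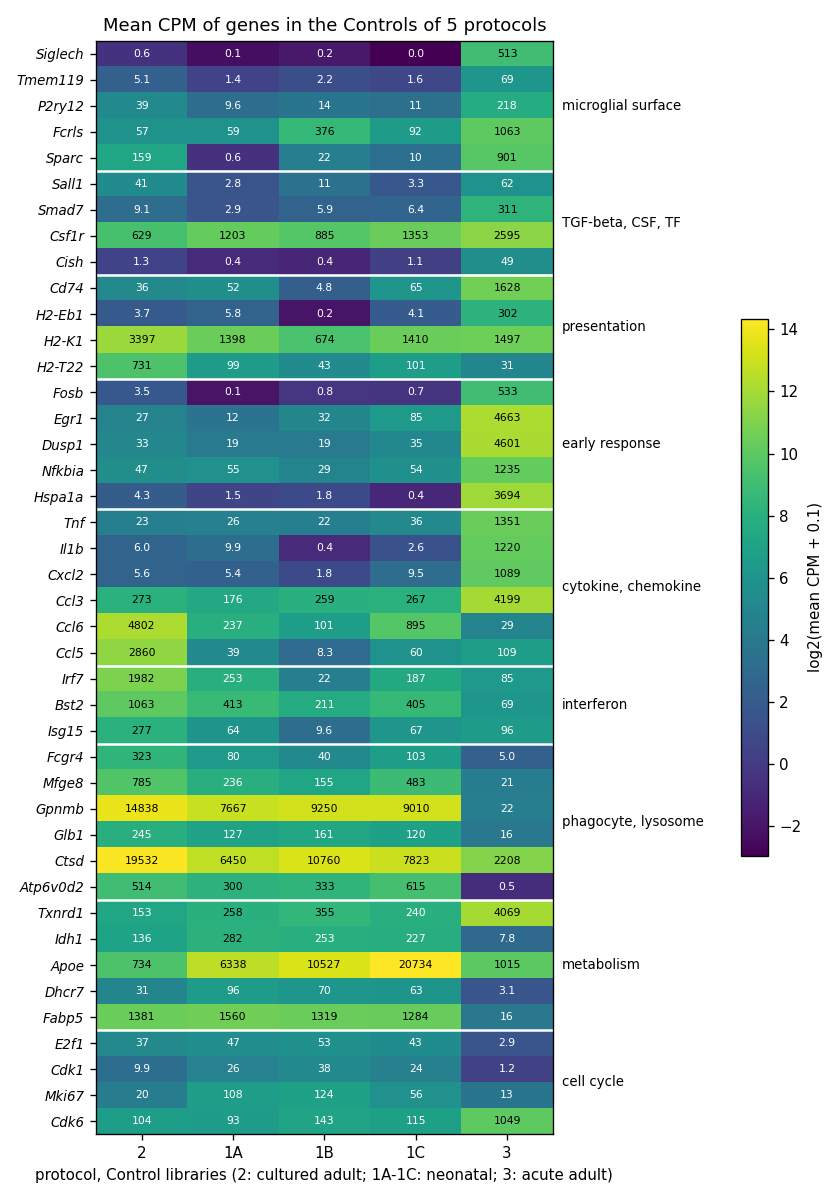
Mean CPM (numbers, n = 3 libraries each) and its log2 after adding 0.1 (colour) of 42 genes in the Controls of Protocol 2, of the neonatal Protocols 1A, 1B and 1C and of Protocol 3. Egr1, Dusp1 and Cxcl2 are high in the column of Protocol 3 alone, Gpnmb and Atp6v0d2 in all 4 cultures, and Irf7, Ccl5 and H2-T22 in Protocol 2.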

How the data were processed

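RNA from the untreated adult cells was sequenced in 3 libraries per group. The deposited values are whole-number counts per gene, which the authors obtained by aligning reads with HISAT2 2.0.5 and counting them with featureCounts 1.5.0-p3; the genome build and the use of strand are not given in the sources used here. From these counts, 17033 genes passing filterByExpr were tested with edgeR 4.0.16 (R 4.3.3, limma 3.58.1) in 1 quasi-likelihood fit of the 15 Control libraries, with TMM scaling, robust estimation and Benjamini-Hochberg adjustment over all genes. TPM used the deposited gene lengths. A fold against a group at 0 was bounded with 3 counts over the group. With 3 libraries a group, p values rest on few replicates.

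The naming rule took the 12 largest rises and 12 largest falls of protein-coding genes whose groups did not overlap and whose higher group averaged 50 CPM or more, the 8 highest TPM values of each group, of each gene list up to 4 called members of largest change (10 CPM or more where higher) and up to 2 uncalled members of highest level, 6 genes the study measured and the 5 most variable genes of each group. Of 437 genes named, 289 are named by it, and the other 148 were chosen after their values were seen, mostly for their known role. Results of some genes are not reported here. Members and lists were chosen with earlier results of these data known. Promoters came from RefSeq (GRCm38.p6), which held 894 of 1164 list members, and 10 motifs were searched. Alternatives were DESeq2 1.42.0, other scalings, no filter, other sets of libraries, a replicate block, leaving out each library and, added later, marker sums without their highest member. On simulated counts (15847 genes) the fit recovered 51.5%, 70.8% and 85.9% of genes changed 1.5, 2 and 4-fold. Only 66, 65 and 64 genes were changed there, in random directions, whereas 77.3% of genes were called between the real groups. The rates therefore do not show how scaling and fit behave with so many differences.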

Additional observations from a re-analysis of the deposited data

Results flagged for a closer look

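Acod1, which encodes the enzyme that makes itaconate in activated macrophages, had a log2 fold change of -0.92 between Protocol 2 and Protocol 3 in the Control libraries, without a call, and of 0.36 in the HMGB1 libraries. It is given because the libraries moved in opposite directions in the 2 conditions, and the difference between them was not tested.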

How the results depend on the processing

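The counts of genes higher, lower and at least 4-fold apart stayed within 1.5 times the values given under each alternative. Leaving out each library gave 6615 to 6810 genes higher, 6117 to 6271 lower, 2622 to 2713 at least 4-fold higher and 2496 to 2756 at least 4-fold lower. DESeq2's Wald test gave 6606 and 6474, with 2445 and 2513 at least 4-fold, so that the 4-fold calls were more often lower there. Correlations of residuals between libraries of the same replicate number were 0.058, 0.0029 and -0.047, and those between unlike numbers lay from -0.081 to 0.080. These values do not show whether libraries of the same number were prepared together. A fit with the replicate block gave 6770 genes higher and 6138 lower. Of 1512 list counts under the alternatives, 30 moved by over 1.5 times. The log2 fold change of Kcnj2, negative and not called with all libraries, was 0.30 (called) without Protocol 3 replicate 3 and -0.17 without its replicate 2. Gapdh, Gh, Gm23935, Lars2 and Rps27rt, not called with all libraries or without the one in question, also changed sign. Without the filter on low counts 26 named genes gained a call, Gapdh, Gh, Prl and Ifit1 among them, and 2 lost one. The cause of these changes was not tested. Depth limits genes with 0 counts in a group, 100 in Protocol 2 and 128 in Protocol 3.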
